A study of Homo sapiens with 2 samples.

Results

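The Notch genes examined are the receptors NOTCH1, NOTCH2 and NOTCH3, the ligands JAG1, JAG2 and DLL1, the nuclear proteins RBPJ and MAML1, and the target genes HES1 and HEY1. They were taken by gene name from the deposited transcript table, where these 10 of 24124 genes hold 77 of 134092 transcript rows. Levels were measured by RNA sequencing in SAS cells, an established human oral cancer line, with 1 library per group. ASC cells stably carry the pLKO.AS2 lentiviral construct encoding ASC, and control cells carry the empty construct. Both were kept in G418 and puromycin, and whether each line is a clone or a pool is not given in the sources used here. ASC, the product of PYCARD, is an adaptor of the inflammasome, and the comparison asks how cells that overexpress it differ from cells that do not.

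Notch receptors are single-pass membrane proteins that bind ligands on a neighbouring cell. Binding leads to cleavage by an ADAM protease and by gamma-secretase, and the freed intracellular part enters the nucleus, joins the DNA-binding protein RBPJ and the scaffold MAML1, and switches on genes of the HES and HEY repressor families. In stratified epithelia Notch signalling is known for its part in differentiation, and receptor mutations are found in squamous cancers of the mouth and skin.

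HES1 is the textbook example of a gene with RBPJ sites in its promoter. The 250 bases before its start, at chr3:194135898-194136147 on the plus strand of GRCh38.p14 from RefSeq, held 2 copies of the RBPJ core TGGGAA, in capitals, at 84 and 70 bases before the start. The first copy follows a G and so matches the longer form GTGGGAA.
HES1 promoter: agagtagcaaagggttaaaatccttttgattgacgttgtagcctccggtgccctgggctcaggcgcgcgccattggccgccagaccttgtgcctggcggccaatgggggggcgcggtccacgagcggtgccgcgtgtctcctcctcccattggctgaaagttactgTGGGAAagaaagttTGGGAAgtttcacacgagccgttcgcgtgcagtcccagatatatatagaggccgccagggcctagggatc
Searched on both strands, TGGGAA occurred in 20.8% and GTGGGAA, which contains it, in 5.43% of 35116 RefSeq promoter windows of this length. RefSeq gave windows for 8 of the 10 genes, not for DLL1 and HEY1. Of 12 windows, 5 of them for RBPJ, the HES1 window and 1 RBPJ window held a match. That RBPJ window, at chr4:26319496-26319745, held 2 copies of TGGGAA and 2 of GTGGGAA, against 2 and 1 in the HES1 window.

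A further set of sequences separates the protein-coding transcripts of JAG2 and RBPJ. JAG2 lies on the minus strand, and its transcripts JAG2-201 (ENST00000331782.7) and JAG2-202 (ENST00000347004.2) differ inside the coding sequence by exon 10 of 26, which spans 114 bases at chr14:105150991-105151104 (hg38). Its coding sequence is 3714 bases long with the exon and 3600 without it. The exon is in capitals between 20 bases of each neighbour, and the second line shows the junction that skips it (GENCODE 29 transcripts).
JAG2-201: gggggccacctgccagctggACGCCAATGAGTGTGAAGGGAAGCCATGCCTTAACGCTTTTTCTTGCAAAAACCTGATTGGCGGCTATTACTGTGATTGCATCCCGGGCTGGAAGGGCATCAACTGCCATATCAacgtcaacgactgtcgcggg
JAG2-202: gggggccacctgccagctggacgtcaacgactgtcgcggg
RBPJ lies on the plus strand of chromosome 4 and has alternative first coding exons, in capitals, joined to a shared exon of 39 bases. RBPJ-202 (ENST00000342320.8) and RBPJ-205 (ENST00000355476.7) share a coding sequence of 1458 bases and differ before the start codon. The capitals span 17 bases at chr4:26362612-26362628 there, 59 bases at chr4:26320757-26320815 in RBPJ-201 (ENST00000342295.5) and 20 bases at chr4:26321029-26321048 in RBPJ-204 (ENST00000348160.8).
RBPJ-202 and RBPJ-205: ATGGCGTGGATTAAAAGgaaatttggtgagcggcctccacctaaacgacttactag
RBPJ-201: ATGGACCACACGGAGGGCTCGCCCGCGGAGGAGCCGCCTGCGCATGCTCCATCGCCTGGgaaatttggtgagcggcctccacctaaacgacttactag
RBPJ-204: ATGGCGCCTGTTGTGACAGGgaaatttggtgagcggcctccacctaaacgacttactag

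The libraries held 31426491 listed reads in ASC cells and 31289581 in control cells. PYCARD stood at 266.5 RPKM (reads per transcript length and library depth, as deposited) in ASC cells and 1.36 RPKM in control cells, in the direction of the labels. Each of 9 squamous epithelial markers was above 1 RPKM, while all 6 fibroblast markers found were below it. Of the leukocyte and endothelial markers 1 each passed 1 RPKM. CD68 stood at 24.1 RPKM in ASC cells and 25.9 RPKM in control cells and CDH5 at 2.23 RPKM in ASC cells and 1.23 RPKM in control cells. The squamous list summed to 3629 RPKM in ASC cells and 2872 RPKM in control cells. KRT8 and KRT18, which are keratins of simple epithelia, stood at 1136 and 1363 RPKM in ASC cells and at 763 and 967 RPKM in control cells. They were the most abundant genes of the list and weigh most in its sum, which is therefore not a measure of squamous genes alone. The basal and squamous genes KRT5, KRT6A and TP63 had log2 ratios of -0.44, -0.46 and -0.24, KRT14 and KRT17 had 0.42 and 0.28, CDH1 had 0.33, and EPCAM was level. Their part in the differences below was not tested. In such bulk samples, fewer cells of a type and less RNA per cell cannot be told apart. As each condition has 1 library, no p-value is given. The 95% intervals (exact Clopper-Pearson, from rounded estimated reads scaled to depth) cover counting error only. Unless reads are named, a log2 ratio compares RPKM + 1, which understates differences of low genes.

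Of the 10 Notch genes, NOTCH3, at 1.77-fold the control level, and NOTCH1, at 1.44-fold, lay furthest above 0, and JAG1, 1.46-fold lower, lay furthest below. No gene passed 2-fold, and the receptor NOTCH2 and the ligand DLL1 were close to 0. The canonical target HES1 was close in both libraries and HEY1 was barely detected. Of the 10 genes, 9 reached 1 RPKM in either library and were compared. Of these, 0 of 9 passed 2-fold, where 0.882% of the 12471 genes compared did (0.617% higher and 0.265% lower). At 1.5-fold, 1 of 9 was higher and 0 lower, against 2.38% and 1.81% of all genes, or 4.19% together. At a log2 ratio of 0.32, 2 of 9 were higher and 1 lower, against 8.88% and 8.72% of all genes, or 17.6% together. Of the 9 genes 5 lay above 0, where 52% of all genes did, with a median log2 ratio of 0.05, against 0.01 over all genes.

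**Figure D1:**
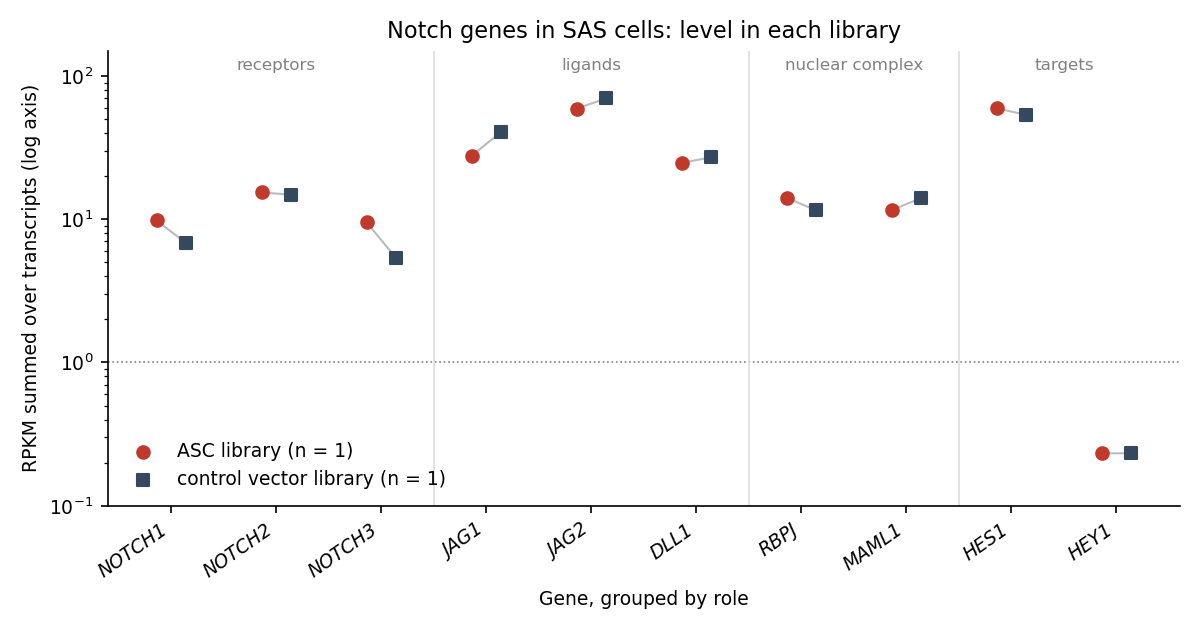
Level of each gene in RPKM summed over its transcripts, on a log axis, with the ASC library as a red circle left of the control library as a dark square, 1 library each. NOTCH1 and NOTCH3 stood higher in ASC cells, JAG1 stood lower, and HEY1 was the 1 gene under the dotted line at 1 RPKM.

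Among the receptors, NOTCH3 differed most. NOTCH3, located at chr19:15159038-15200981 on the minus strand, stood at 9.53 RPKM in ASC cells and 5.37 RPKM in control cells, from 2584 estimated reads in ASC cells and 1432 in control cells. Its log2 ratio was 0.72, and that of its reads 0.85 (95% interval 0.75 to 0.94). A ratio as far from 0 was found in 2.22% of all genes compared. NOTCH1, the receptor best known for its role in keratinocytes, stood at 9.80 RPKM in ASC cells and 6.82 RPKM in control cells, from 3196 reads in ASC cells and 2242 reads in control cells. Its log2 ratio was 0.46, and that of its reads 0.51 (0.43 to 0.58), with 7.83% of genes as far from 0. NOTCH2 was the most abundant receptor in both libraries, at 15.4 RPKM in ASC cells and 14.8 RPKM in control cells. Its log2 ratio of 0.05 was the closest to 0 of the 9 genes.

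The make-up of the receptor pool differed too. NOTCH2 held 44.3% of the summed receptor RPKM in ASC cells and 54.9% in control cells, and NOTCH3 held 27.5% in ASC cells and 19.9% in control cells. NOTCH1 held 28.2% in ASC cells and 25.2% in control cells. NOTCH3 was thus the lowest of the 3 in both libraries, but near equal to NOTCH1 in the ASC library.

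Ligand genes were more abundant per length than receptor genes in both libraries. JAG2 led, at 59.1 RPKM in ASC cells and 69.7 RPKM in control cells, giving a log2 ratio of -0.23. JAG1, the ligand altered in Alagille syndrome, lies at chr20:10637684-10673999 on the minus strand. It stood at 27.7 RPKM in ASC cells and 40.6 RPKM in control cells, from 5085 reads in ASC cells and 7149 in control cells. Its log2 ratio was -0.53, that of its reads -0.50 (-0.55 to -0.45), and 5.41% of genes lay as far from 0. DLL1, a ligand of the Delta type, stood at 24.8 RPKM in ASC cells and 27.0 RPKM in control cells, and its log2 ratio was -0.12. In the ASC library JAG1 and DLL1 were thus near each other, while in control cells JAG1 was the higher. The 3 ligands summed to 112 RPKM in ASC cells and 137 RPKM in control cells, and the 3 receptors to 34.7 RPKM in ASC cells and 27.0 RPKM in control cells. The ligand sum was 3.22 times the receptor sum in ASC cells and 5.08 times in control cells. These sums include transcripts that are not protein coding, which raise the level of JAG2 in both libraries. JAG2-203 and JAG2-204, with a retained intron, held 21.2% and 18.8% of JAG2 RPKM in ASC cells and 24.6% and 12.8% in control cells.

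The nuclear partners went in opposite directions by small amounts. RBPJ, which binds DNA and represses targets in the absence of Notch, stood at 14.1 RPKM in ASC cells and 11.5 RPKM in control cells, and its log2 ratio was 0.27. MAML1, which recruits histone acetyltransferases to the complex, stood at 11.6 RPKM in ASC cells and 14.03 RPKM in control cells, and its log2 ratio was -0.26. After subtraction of the median of the 50 nearest compared genes on its chromosome, MAML1 came to -0.02, so the median of those neighbours was itself below 0.

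Among the targets, HES1 was abundant and close to 0. HES1, a bHLH repressor, stood at 59.4 RPKM in ASC cells and 53.6 RPKM in control cells, from 2949 reads in ASC cells and 2643 in control cells. Its log2 ratio of 0.15 was matched or passed in size by 50.5% of all genes. HEY1 had 19 reads in each library, or 0.232 RPKM, and was not compared. At this depth the interval of its log2 ratio of reads ran from -1.003 to 0.991, so a 1.5-fold difference either way was not detectable. The coding HEY1-201 had 18.3 estimated reads in ASC cells and 9.18 estimated reads in control cells and HEY1-202 had 0.654 in ASC cells and 9.78 in control cells, too few to compare.

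**Figure D2:**
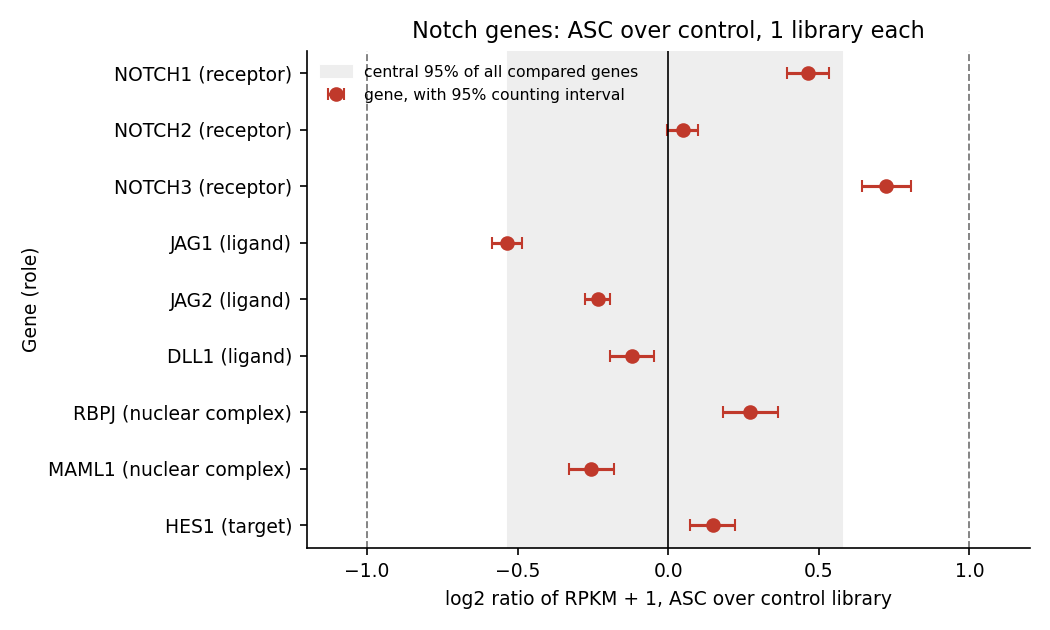
Log2 ratio of RPKM + 1, ASC over control library, for the 9 compared genes by role, with bars for the 95% counting interval, a grey band for the central 95% of all compared genes (-0.53 to 0.58) and dashed lines at 2-fold. NOTCH3 lay above the band and JAG1 just below its lower edge, and the other 7 genes lay inside it.

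Counting error was smaller than these differences for all 9 genes, since the interval of each log2 ratio of reads left out 0. For NOTCH2 it began at 0.0018, at a fold of 1.04, and on the RPKM + 1 scale it ran from -0.0026 to 0.10 and held 0. Such intervals compare these libraries and do not include the spread between cultures or library preparations. The summed reads of 6 of the 10 genes, among them NOTCH1, NOTCH3, RBPJ and HES1, were within 0.05 of a whole number in both libraries. Those of NOTCH2, JAG1, JAG2 and MAML1 were not, and reads shared with other genes may enter their estimates. With each library taken by itself, 77.9% of all compared genes were within 0.05 in ASC cells and 77.9% in control cells. The share in both libraries at once was not computed. The kit does not mark strand. In GENCODE 29 a gene on the opposite strand shares 79 exon bases with JAG1, and a gene on the same strand shares 469 with JAG2, and neither is analysed here.

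By transcript, 24 of the 77 rows reached 1 RPKM in either library, 15 of them protein coding, 8 with a retained intron and 1 other. At least 2-fold higher was 1 of 24 and lower 1 of 24, where 1.26% and 1.06% of all 34527 compared transcripts were, or 2.32% together. Of the 24, 12 lay above 0, against 50.1% of all transcripts. Estimated reads of transcripts that share exons carry an error of assignment that the intervals do not hold. A single transcript held over 90% of reads in both libraries for NOTCH1, NOTCH2, NOTCH3, DLL1 and MAML1.

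For NOTCH3, the full-length coding transcript was higher in ASC cells. The full-length NOTCH3-201 (ENST00000263388.6) stood at 7.85 RPKM in ASC cells and 4.36 RPKM in control cells, giving a log2 ratio of 0.72. The shorter NOTCH3-206 (ENST00000601011.1) stood at 1.07 RPKM in ASC cells and 0.507 RPKM in control cells, from 147 reads in ASC cells and 70.0 reads in control cells. Its share of NOTCH3 reads was 5.69% in ASC cells and 4.89% in control cells. NOTCH3-206 reached 1 RPKM in the ASC library alone, so the filter fixed its direction. The coding NOTCH3-204 stayed under 1 RPKM, at 0.439 RPKM in ASC cells and 0.508 RPKM in control cells. It had 8.75 reads in ASC cells and 10.2 in control cells, and is named after its values were seen.

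The lower JAG1 level was seen in its coding transcript and was larger in a non-coding one. JAG1-201 (ENST00000254958.9), which encodes the protein, stood at 21.9 RPKM in ASC cells and 29.1 RPKM in control cells, giving a log2 ratio of -0.40. JAG1-202 (ENST00000423891.6), annotated without a coding sequence, has a first exon that lies in an intron of JAG1-201. It stood at 2.07 RPKM in ASC cells and 5.18 RPKM in control cells, from 278 reads in ASC cells and 696 reads in control cells, giving a log2 ratio of -1.01, the 1 transcript at least 2-fold lower. It held 5.46% of JAG1 reads in ASC cells and 9.74% in control cells. Its log2 ratio was -0.99 with TMM scaling and -0.69 with a pseudocount of 3, both short of 2-fold. Of the 3 listed JAG1 transcripts with a retained intron above 1 RPKM, JAG1-203 and JAG1-206 reached it in control cells alone. The filter thus fixed their log2 ratios, -0.50 and -0.08, below 0. JAG1-206 had 19.1 reads in ASC cells and 21.4 in control cells, and the interval of its log2 ratio of reads held 0. JAG1-204 reached 1 RPKM in both libraries and had a log2 ratio of -0.44, from 32.1 reads in ASC cells and 51.5 in control cells.

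JAG2 differed between its coding transcripts. JAG2-202, without exon 10, stood at 15.5 RPKM in ASC cells and 23.1 RPKM in control cells, from 3170 reads in ASC cells and 4722 in control cells, giving a log2 ratio of -0.54. JAG2-201, with exon 10, stood at 17.6 RPKM in ASC cells and 17.1 RPKM in control cells, from 3654 reads in ASC cells and 3565 reads in control cells, giving a log2 ratio of 0.04. JAG2-201 thus held 53.5% of the reads of this pair in ASC cells (52.4% to 54.7%, exact binomial) and 43.0% in control cells (41.9% to 44.1%). By these estimates, the form that was more abundant in control cells, the one without the exon, was the less abundant in ASC cells. The intervals leave out the error of assigning reads between forms that differ inside the coding sequence by exon 10 alone. They are therefore too narrow. Transcripts with a retained intron held 17.0% of JAG2 reads in ASC cells and 17.4% in control cells. Of these, JAG2-203 stood at 12.5 RPKM in ASC cells and 17.2 RPKM in control cells and JAG2-204 at 11.1 RPKM in ASC cells and 8.95 RPKM in control cells.

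For RBPJ, with 30 listed transcripts, the reads were spread over several starts. RBPJ-202 led, at 5.05 RPKM in ASC cells and 3.58 RPKM in control cells, and held 53.4% of RBPJ reads in ASC cells and 47.8% in control cells. RBPJ-205, with the same coding sequence, stood at 1.91 RPKM in ASC cells and 1.96 RPKM in control cells and held 21.0% in ASC cells and 27.3% in control cells. RBPJ-204 stood at 2.11 RPKM in ASC cells and 1.30 RPKM in control cells. RBPJ-202 and RBPJ-204 thus stood higher in ASC cells, and RBPJ-205 at a like level in both. RBPJ-214 (ENST00000507561.5) stood at 1.63 RPKM in ASC cells and 3.15 RPKM in control cells, giving a log2 ratio of -0.66. The 22 listed transcripts that start upstream of RBPJ-202 together held 43.7% of reads in ASC cells and 51.2% in control cells. RBPJ-201 stayed under 1 RPKM, at 0.831 RPKM in ASC cells and 0.289 RPKM in control cells from 174 reads in ASC cells and 60.5 reads in control cells, and is named after its values were seen. RBPJ-210 (ENST00000505727.1), with a retained intron, was the 1 transcript at least 2-fold higher, at 1.27 RPKM in ASC cells and 0.0956 RPKM in control cells. It had 39.0 reads in ASC cells and 2.94 reads in control cells, and its log2 ratio of reads of 3.69 had an interval of 2.04 to 6.03. With a pseudocount of 3 its log2 ratio was 0.46.

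HES1 reads came from 2 transcripts in like shares. The coding HES1-201 (ENST00000232424.3) held 76.2% of HES1 reads in ASC cells and 74.4% in control cells, and HES1-202, with a retained intron, held the rest.

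**Figure D3:**
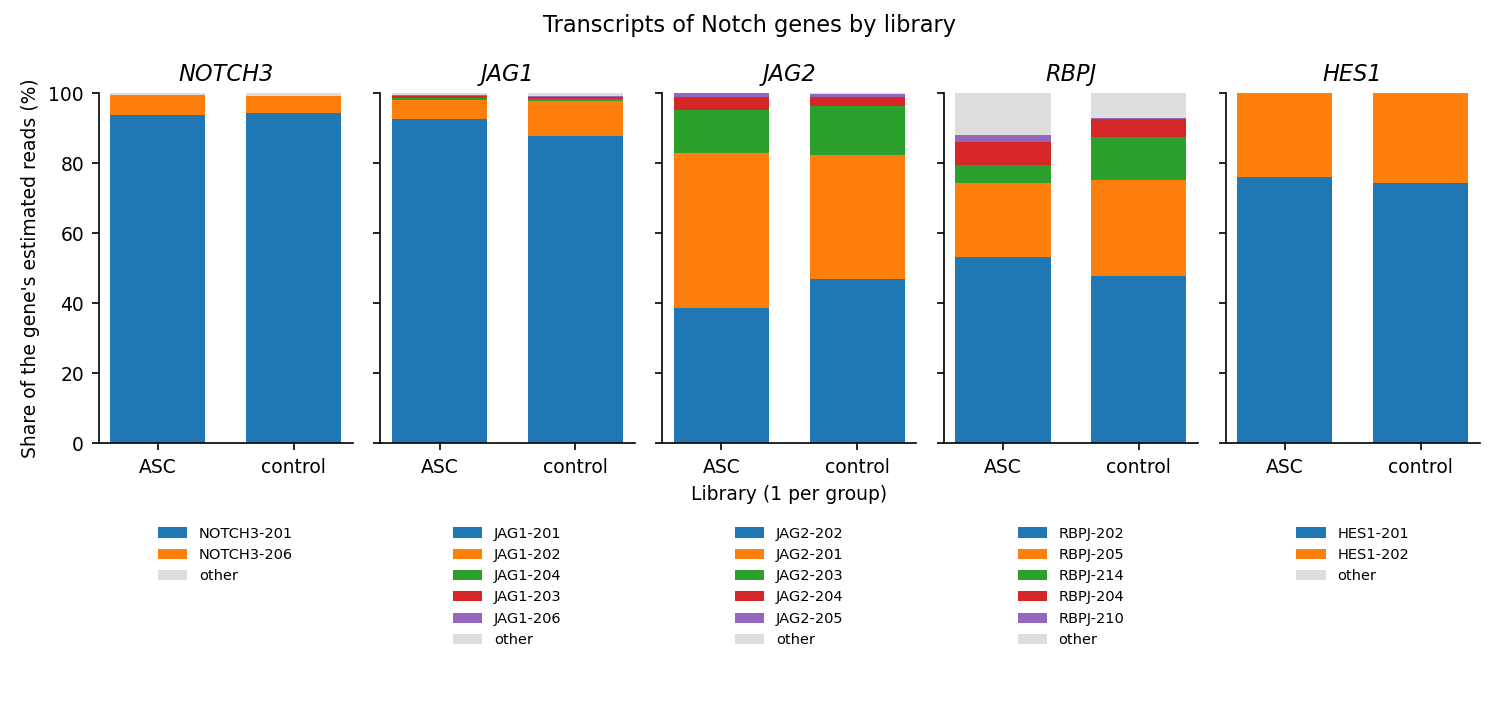
Share of each gene's estimated reads held by its transcripts, in percent, with the ASC library left of the control library, 1 library each. The orange JAG2-201 segment was the larger of the JAG2 coding pair in ASC cells and the blue JAG2-202 segment in control cells, while the NOTCH3 and HES1 bars differed by under 2 percentage points.

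Of 68 further pathway genes listed by role, 63 were found and 54 reached 1 RPKM. Of the 54, 0 were at least 2-fold higher and 0 lower, where 0.617% and 0.265% of all genes were. Above 0 lay 36 of 54, with a median log2 ratio of 0.08, against 52% and 0.01 over all genes. Counts by role are descriptions beside these shares. At a log2 ratio of 0.32, 7 were higher and 4 lower, together 11 of 54, where 17.6% of all genes were.

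Of the other receptors and ligands, NOTCH4, DLL3 and DLL4 stayed under 1 RPKM in both libraries. NOTCH4 had 14 reads in ASC cells and 15 in control cells, and DLL3 had 68 in each. DLL4, a Delta ligand best known from vessels, had 24 reads in ASC cells and 5 reads in control cells, or 0.276 RPKM in ASC cells and 0.0440 RPKM in control cells, and its log2 ratio of reads of 2.26 had an interval of 0.84 to 4.003. DLK2, an atypical ligand without the domain that activates receptors, stood at 12.5 RPKM in ASC cells and 15.0 RPKM in control cells. DLK1, and among the other roles DTX1, HES5, HEY2 and HEYL, were not found by gene name and so were not analysed here.

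Of the 3 Fringe genes, 2 stood lower in ASC cells and the other higher. MFNG and LFNG, glycosyltransferases that extend O-fucose on receptors and so alter which ligands they answer to, stood at 1.71 RPKM in ASC cells and 3.84 RPKM in control cells and at 3.88 RPKM in ASC cells and 5.54 RPKM in control cells, with log2 ratios of -0.84 and -0.42. By the most abundant transcript alone these were -0.35 and -0.22, and LFNG came to -0.75 with its neighbours' median subtracted. RFNG, named after its values were seen, stood at 17.1 RPKM in ASC cells and 15.1 RPKM in control cells. POFUT1, which adds the O-fucose, stood at 34.2 RPKM in ASC cells and 28.0 RPKM in control cells. Of the 5 genes of this role, 2 lay above 0 and 3 below.

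Cleavage genes were close to 0. Of 9, 8 lay above 0, with a median log2 ratio of 0.10, against 52% and 0.01 over all genes. The counting intervals of APH1A, APH1B, NCSTN and PSENEN held 0 on the RPKM + 1 scale. PSEN2, a catalytic subunit of gamma-secretase, stood at 7.78 RPKM in ASC cells and 5.76 RPKM in control cells, and its log2 ratio was 0.38. ADAM17, a membrane protease that can make the first cut, stood at 23.3 RPKM in ASC cells and 21.2 RPKM in control cells, and its log2 ratio was 0.13.

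Among 14 genes of ligand endocytosis and receptor turnover, 9 lay above 0, where 52% of all genes did. NEURL1, a ubiquitin ligase that acts on ligands, stood at 16.9 RPKM in ASC cells and 9.25 RPKM in control cells, giving a log2 ratio of 0.80. DTX3L and DTX4, of the Deltex family of ubiquitin ligases, stood at 13.1 RPKM in ASC cells and 8.54 RPKM in control cells and at 3.35 RPKM in ASC cells and 5.33 RPKM in control cells, with ratios of 0.56 and -0.54.

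The nuclear cofactors lay close to 0, none past a log2 ratio of 0.32 in size. Of 5 compared coactivators 2 lay above 0, with SNW1, CREBBP and KAT2A at 0.17, 0.11 and -0.19. Of 10 corepressors 8 lay above 0, where 52% of all genes did. Among those 8, the counting intervals of CIR1, CTBP2 and TLE3 held 0 on the RPKM + 1 scale. KDM5A, a histone demethylase, was at 0.23, TLE1, of the Groucho family, at 0.19, and L3MBTL3, a partner of RBPJ, at -0.22. KDM5A came to -0.06 when protein-coding transcripts alone were summed, and TLE1 to 0.019 by its most abundant transcript.

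The HES and HEY family and other target genes held the widest ratios of these roles. Of 10 compared, 7 lay above 0, with a median of 0.21, against 52% and 0.01 over all genes. HES2, a bHLH repressor of the HES family, stood at 7.15 RPKM in ASC cells and 3.09 RPKM in control cells, from 905 reads in ASC cells and 388 in control cells. Its log2 ratio of 0.995 fell just short of 2-fold, though it was 2.31-fold in plain RPKM. BHLHE41, a bHLH repressor of the circadian clock, stood at 1.52 RPKM in ASC cells and 4.03 RPKM in control cells, with a ratio of -0.998, or 2.65-fold lower in plain RPKM. SOX9, a transcription factor of epithelial progenitors, stood at 4.01 RPKM in ASC cells and 2.21 RPKM in control cells, a ratio of 0.64. NRARP, a feedback inhibitor and close target of Notch, stood at 13.4 RPKM in ASC cells and 16.0 RPKM in control cells, and HES4 at 5.52 RPKM in ASC cells and 3.37 RPKM in control cells; both are named after their values were seen. HES2, HES4 and NRARP thus did not share a direction.

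**Figure D4:**
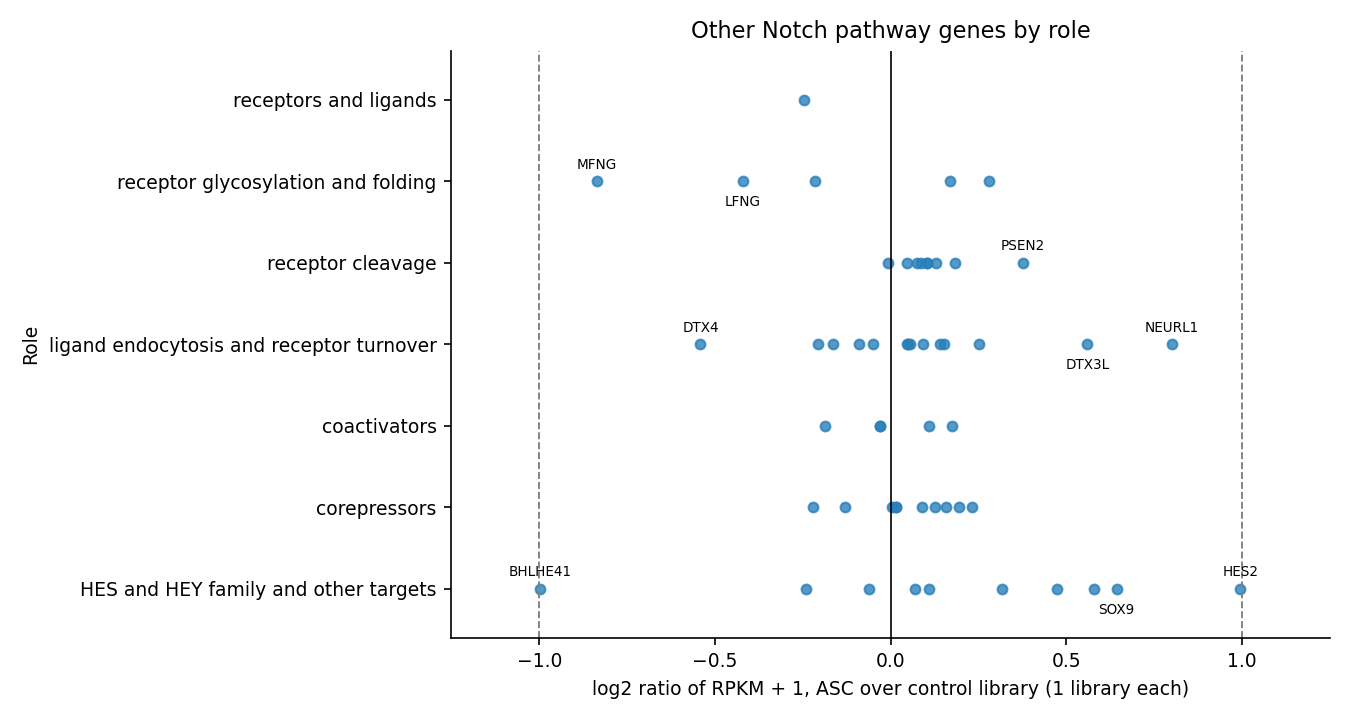
Log2 ratio of RPKM + 1, ASC over control library, for the 54 compared further pathway genes, 1 point each, in rows by role, with dashed lines at 2-fold and labels on the genes named by rule that passed a log2 ratio of 0.32 in size. Coactivators and corepressors lay within 0.25 of 0, while HES2 and BHLHE41 lay next to the lines.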

How the data were processed

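Libraries of poly(A) RNA were made with a TruSeq RNA v2 kit, per the labels. The deposited table holds estimated counts of reads per transcript and RPKM for each library, per the file headers. Per the submitters' processing notes the authors used hg38. Aligner, quantifier and annotation: not given in the sources used here. From the values, each deposited RPKM equals reads over transcript length and a depth constant (35660974 reads for ASC, 35780292 for control). Of the transcript identifiers, 98.4% matched GENCODE 29 with the same version, and printed ends are the stop minus 1. Gene names turned into dates were restored for 284 of 285 rows through the transcript identifier.

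RPKM was summed per gene, genes or transcripts that reached 1 RPKM in ASC or control cells were compared, and the log2 ratio of ASC over control used a pseudocount of 1 RPKM. No test was possible with 1 library per group. The calculation was tested on simulated data. The ASC library was assigned by its vector label, because the genotype label gives SAS. Named are all members, their transcripts of at least 1 RPKM or 10% of a gene's reads, and per role of the further pathway genes the 3 with the largest absolute ratio, of which 1 is not reported here. The members and lists were chosen with earlier results of these data known. Python 3.11.15, pandas 2.3.3, scipy 1.17.1 and edgeR 4.0.16 (TMM factors) were used.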

Additional observations from a re-analysis of the deposited data

How the results depend on the processing

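No paired analysis was possible because each group has 1 library, and for the same reason no library could be left out. The count of Notch genes past 2-fold was 0 under 10 other settings of pseudocount, filter, scaling, unit, summing and position. Of all genes, 0.345% (pseudocount of 3) to 2.3% (pseudocount of 0.1) passed 2-fold in those settings. The count was 1 of 9 at 1.5-fold and 3 of 9 at a log2 ratio of 0.32, against 4.19% and 17.6% of all genes. Their median log2 ratio came to -0.0136 once the neighbours' median was taken off. NOTCH1, NOTCH3, JAG1, JAG2, DLL1, RBPJ, MAML1 and HES1 kept their sign in all 10, and NOTCH2 changed sign in 1, that with neighbours taken off. NOTCH3 ranged from 0.58 to 0.83, NOTCH1 from 0.38 to 0.52, JAG1 from -0.57 to -0.40, JAG2 from -0.54 to -0.23 (the lowest from its most abundant transcript alone), and RBPJ from 0.17 to 0.40. KDM5A reversed to -0.0587 with protein-coding transcripts only. Other named genes that moved by over 1.5 times and beyond counting error were POFUT1 to 0.10 and ADAM17 to 0.28 with neighbours taken off, KAT2A to -0.098, CREBBP to 0.29, TLE1 to 0.019, MFNG to -0.35 and LFNG to -0.22 by the top transcript, LFNG to -0.75 with neighbours taken off, and BHLHE41 to -0.64, MFNG to -0.54 and SOX9 to 0.43 with a pseudocount of 3. KDM5A came to 0.072 with CPM and 0.096 by the top transcript. The causes were not tested. Of the further pathway genes, 3 of 54 passed 2-fold with a pseudocount of 0.1 (HES2 higher, BHLHE41 and MFNG lower). Of all genes, 2.3% did. With CPM 2 of 60 passed (HES2 and BHLHE41), against 1.37% of all genes. When centred on the median 1 of 54 passed (BHLHE41), against 0.89%, and with each gene's top transcript 1 of 53 (HES4), against 0.998%. There were 5 of 54 at 1.5-fold and 11 of 54 at 0.32, against 4.19% and 17.6% of all genes. The count of Notch transcripts past 2-fold was 2 of 24 in the report, against 2.32% of all transcripts compared. It was 0 of 24 with a pseudocount of 3 (0.258% of all), 1 of 14 with a filter at 5 RPKM (1.56%) and 1 of 24 with TMM scaling (2.3%). With CPM it was 4 of 27 (4.15%), at 1.5-fold 4 of 24 (11%) and at 0.32 14 of 24 (32.4%). Transcript shares taken over RPKM in place of reads kept their sign for 22 of 24 transcripts, and 19 moved beyond counting error. The exceptions were NOTCH3-201, -0.57 points by reads and 1.18 by RPKM, and MAML1-201, -0.26 and 1.18. Depth limits HEY1, NOTCH4 and DLL4, with under 25 reads each, and among the compared genes HES6, whose 77 reads in ASC cells and 66 in control cells gave a log2 interval of -0.28 to 0.71.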

Other observations

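NOTCH2NL, a truncated human-specific relative of NOTCH2 with a near-identical start, stood at 17.3 RPKM in ASC cells and 15.6 RPKM in control cells, a log2 ratio of 0.14. Its estimated reads were fractional, 1368.2 in ASC cells and 1182.5 in control cells, so reads shared with near-identical copies, NOTCH2 among them, may enter its level.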
